A study of Mus musculus with 4 samples.

Results

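A set of 10 genes of the heat shock chaperone system were read in nuclei sorted from the cervical spinal cord of mice with and without a spinal cord injury. They were chosen by name from the 32285 gene symbols of the matrices: Hsp90aa1, Hsp90ab1, Hspa8, Hsph1, Hspa4l, Hspa4, Dnaja1, Dnajb1, Hspd1 and Hspe1, each present in all 4 libraries. The working name for them is cytosolic heat shock chaperones, but it does not cover 2 of them, because Hspd1 and Hspe1 encode chaperones of the mitochondrial matrix. All mice were female and carried Chx10Cre/+ together with ROSA26CAG-LSL-Sun1-sfGFP-Myc/+. In such mice Cre active in V2a interneurons, excitatory interneurons of the spinal cord, switches on a green fluorescent protein of the nuclear envelope, and nuclei were collected by its fluorescence. A nucleus is labelled once Cre has acted in it or in a cell it descends from, so the label does not require the Cre driver to be active at the time of collection. The 2 uninjured libraries came from segments C1 to C8. The 2 injured libraries came from segments C3 to C8, taken 5 days after a hemisection, a cut through one side of the cord, at C2. Segment range and injury therefore cannot be told apart in any comparison below. The labels do not tie the libraries to separate animals. Each p-value below sets a difference against how far the libraries of a group lie apart, a spread that may be technical. The sources used here give no age and no number of animals per library.

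Chaperones of this group fold proteins in a relay. J-domain proteins such as Dnaja1 and Dnajb1 hand unfolded clients to HSP70 proteins, of which Hspa8 (HSC70) is the form made in nearly all cells at all times, and start its ATP cycle. The HSP110 proteins Hsph1, Hspa4l and Hspa4 release ADP from HSP70 so that the client can leave and the cycle can start again. HSP90 proteins, the more stress-responsive Hsp90aa1 and the more constant Hsp90ab1, take over clients that are close to their final fold, among them kinases and steroid receptors. Hspd1 (HSP60) and its lid Hspe1 (HSP10) form a folding chamber in mitochondria. Many of these genes are targets of heat shock factors, which bind DNA at inverted repeats of GAA. Neurons are known for a high basal level of Hspa8 and of HSP90 and for a weak induction of the inducible HSP70 proteins.

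The promoter windows of RefSeq (GRCm38.p6, 250 bases before to 50 bases after a gene's start) were searched for the letters of such inverted repeats, GAANNTTC and TTCNNGAA, where N is any base. Both motifs read the same on either strand, and the pair can overlap by 3 letters to make a longer element. Of all 32851 windows of this length in the table, 15.1% held at least 1 of the motifs and 0.603% held both overlapping in this way. Windows were listed for 7 of the 10 genes: Hsph1, Hspa4l, Hspa4, Dnaja1, Dnajb1, Hspd1 and Hspe1. Matches were found for 4 of these 7, and the overlapping form for 3, Hsph1, Hspd1 and Hspe1. The 7 genes had 12 windows in all, and a gene was counted if any of its windows matched. These counts of genes are therefore not on the scale of the shares of windows above. The 4 windows shown here are the shared start of Hspd1 and Hspe1 read towards Hspe1, because it holds the longest element, Hsph1 and Dnaja1, the other genes with a match, and Hspa4l, the chaperone with the most counts below, which has none. Each is written 5′ to 3′ on the strand of its gene, with matches to the motifs in capitals.
Hspe1, chr1:55087898-55088197, plus strand: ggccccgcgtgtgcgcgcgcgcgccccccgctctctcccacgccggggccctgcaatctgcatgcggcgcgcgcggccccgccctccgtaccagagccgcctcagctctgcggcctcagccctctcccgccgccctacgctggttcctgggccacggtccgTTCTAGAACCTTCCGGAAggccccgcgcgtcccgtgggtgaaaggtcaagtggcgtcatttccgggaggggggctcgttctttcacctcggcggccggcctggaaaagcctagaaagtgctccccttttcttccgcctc
Hsph1, chr5:149636287-149636586, minus strand: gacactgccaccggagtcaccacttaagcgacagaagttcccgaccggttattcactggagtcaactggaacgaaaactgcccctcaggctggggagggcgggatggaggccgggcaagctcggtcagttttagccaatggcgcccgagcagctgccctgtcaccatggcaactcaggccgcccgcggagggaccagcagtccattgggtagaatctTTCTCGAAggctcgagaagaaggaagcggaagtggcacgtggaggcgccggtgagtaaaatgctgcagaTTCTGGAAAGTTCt
Dnaja1, chr4:40722218-40722517, plus strand: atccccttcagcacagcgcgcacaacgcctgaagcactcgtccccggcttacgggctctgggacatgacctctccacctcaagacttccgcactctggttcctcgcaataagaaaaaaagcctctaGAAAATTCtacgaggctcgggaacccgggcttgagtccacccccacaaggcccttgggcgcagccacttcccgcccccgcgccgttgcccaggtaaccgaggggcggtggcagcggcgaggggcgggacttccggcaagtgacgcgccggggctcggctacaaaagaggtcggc
Hspa4l, chr3:40745363-40745662, plus strand: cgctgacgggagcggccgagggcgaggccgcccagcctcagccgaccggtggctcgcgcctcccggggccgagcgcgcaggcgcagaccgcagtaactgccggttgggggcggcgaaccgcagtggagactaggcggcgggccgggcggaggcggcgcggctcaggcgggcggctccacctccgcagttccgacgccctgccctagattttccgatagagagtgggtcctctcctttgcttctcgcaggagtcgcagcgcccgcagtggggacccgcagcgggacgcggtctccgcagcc
In Hspe1, 3 matches overlapped in 1 run that ended 72 bases before the start, and the window of Hspd1 on the other strand, which overlaps this one, holds the same run. Hsph1 held 1 match before its start and an overlapping pair after it, and Dnaja1 held 1. A match is a description of letters, not a binding site, and no match says only that these letters are not in this window. The starts used for the windows can differ from the ends of the gene spans given below. Those of Hspa4l and Dnaja1 shown here lie wholly inside these spans.

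The libraries held 2901680 to 13496025 counts in 432 to 2399 nuclei. After filtering, 562 and 2071 uninjured nuclei and 561 and 389 injured nuclei were kept, and 19 clusters were formed. Of these, 9 were named glutamatergic neuron-like from their markers and held 506, 859, 432 and 330 nuclei of uninjured library 1, uninjured library 2, injured library 1 and injured library 2, the order used throughout. Only these nuclei are meant below unless another class is named. In them Slc17a6, the vesicular glutamate transporter, was stored in 73.7% to 89.3% of nuclei, and of the V2a lineage Sox14 was stored in 15.8% to 32.2% and Lin28b in 78.7% to 89.7%, while Sox21 was near absent with at most 1.19%. The mix of clusters differed between the groups. Cluster 4, with the inhibitory marker Gad2 among its top genes, held 73 of 506, 183 of 859, 37 of 432 and 29 of 330 nuclei. Comparisons over all these nuclei were not adjusted for cluster. Uninjured library 2 stood apart: it held 658 oligodendrocyte-like and 109 astrocyte-like nuclei against at most 13 and 6 in each other library, and Slc6a5 of glycinergic neurons was stored in 21.1% of its glutamatergic neuron-like nuclei against at most 13.0% elsewhere. Pairs of libraries shared 1 cell barcode at most.

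The matrices store 2 kinds of entry for a gene in a nucleus, a count above 0 and an explicit 0. A sparse matrix normally stores no 0, and the file names mention SoupX, which subtracts RNA free in the suspension. An explicit 0 was therefore read as a gene that was detected and then emptied; no label states this. The share of nuclei with any stored entry, called the stored share here, then still includes free RNA. Both readouts are given for the chaperones.

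Counts were missing for most of the set: 6 of the 10 chaperones, Hsp90aa1, Hsp90ab1, Hspa8, Dnajb1, Hspd1 and Hspe1, had 0 counts in the glutamatergic neuron-like nuclei of every library although each was stored in 14.1% to 87.3% of these nuclei. Hspa8, the constitutive HSP70, was stored in 352 of 506, 508 of 859, 257 of 432 and 281 of 330 nuclei, and not 1 of these entries held a count. The limit that a count of 0 allows, taken as 3 counts, is 0.323 to 1.12 CPM (counts scaled to the library's total), for counting error only. It bounds the counts left after emptying and not the RNA detected, since each stored 0 is read as a detected gene. A complete loss of counts was less common in the table at large: of 10451 genes stored in over 10% of the nuclei of every library, 1031 (9.87%) had 0 counts in all 4, and of 3396 such genes with a mean stored share of 50% to 90%, 130 (3.83%) did. The 10 chaperones are named genes and no draw from this table, so the shares are set side by side with no test.

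Counts were left in Hspa4l, Hspa4, Hsph1 and Dnaja1. The HSP110 gene Hspa4l kept 1255, 1272, 267 and 472 counts, with a count in 288 of 469, 386 of 772, 89 of 376 and 147 of 288 nuclei that stored it. Its relative Hspa4 kept 196, 0, 51 and 129 counts, with a count in 108 of 415, 0 of 629, 33 of 259 and 71 of 229 nuclei that stored it. Uninjured library 2 thus held no count of Hspa4 although 629 of its 859 nuclei stored it. Hsph1, the third HSP110 gene, kept 6, 0, 0 and 5 counts. Dnaja1 kept 1 count, in injured library 2. What is left of the chaperones in the counts is therefore almost wholly Hspa4l and Hspa4.

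The genes with counts were also the longest. In GENCODE vM21 (GRCm38, mm10) Hspa4l spans 51609 bases (chr3:40744495-40796103, plus strand), Hspa4 40644 bases (chr11:53259814-53300457, minus strand) and Hsph1 22090 bases (chr5:149614287-149636376, minus strand). The other 7 span at most 15000 bases. These are Dnaja1 (chr4:40722150-40737149, plus), Hsp90aa1 (chr12:110690605-110702728, minus), Hspd1 (chr1:55077835-55088243, minus), Hspa8 (chr9:40800984-40810087, plus), Hsp90ab1 (chr17:45567775-45573271, minus), Dnajb1 (chr8:83608193-83612653, plus) and Hspe1 (chr1:55088132-55091307, plus). Of these 7 genes, 6 had 0 counts in every library, and of the 3 longer genes none had. The same order held over the table: among genes stored in over 10% of nuclei of every library, 792 of 2612 (30.3%) with a span of up to 15000 bases had 0 counts in all libraries, against 219 of 4487 (4.88%) from there to 60000 bases and 14 of 3256 (0.430%) above. The limit of 15000 bases was chosen after the values were seen. Some loci call for care, since the sources used here do not give the use of strand in counting. Hspd1 and Hspe1 overlap head to head on opposite strands, Dnaja1 overlaps Smu1 and Gm6297 on the opposite strand, and RefSeq lists 7 pseudogenes named after Hspe1, 5 after Hspd1 and 1 after Dnaja1.

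How often any gene is stored depends on how many genes a nucleus stores, and the median was 5635.5, 5286, 4340 and 4800 stored genes per nucleus, lower in both injured libraries. Nuclei were therefore compared within bins of 1000 stored genes, from 2000 to 9000, which held 492, 848, 410 and 326 nuclei. The plot of stored share against depth shows why. Hspa8 was stored in 35.3%, 33.3% and 36.7% of the shallowest nuclei of uninjured library 1, uninjured library 2 and injured library 1, and in 92.1%, 93.5% and 91.7% of the deepest. Injured library 2 went its own way, with 86.7% in the shallowest bin (15 nuclei) and 100% in the deepest (9 nuclei). In its well filled bin of 4000 to 5000 stored genes, Hspa8 was stored in 81.8% of 88 nuclei, against 64.2%, 54.8% and 56.0% in the other libraries.

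**Figure D1:**
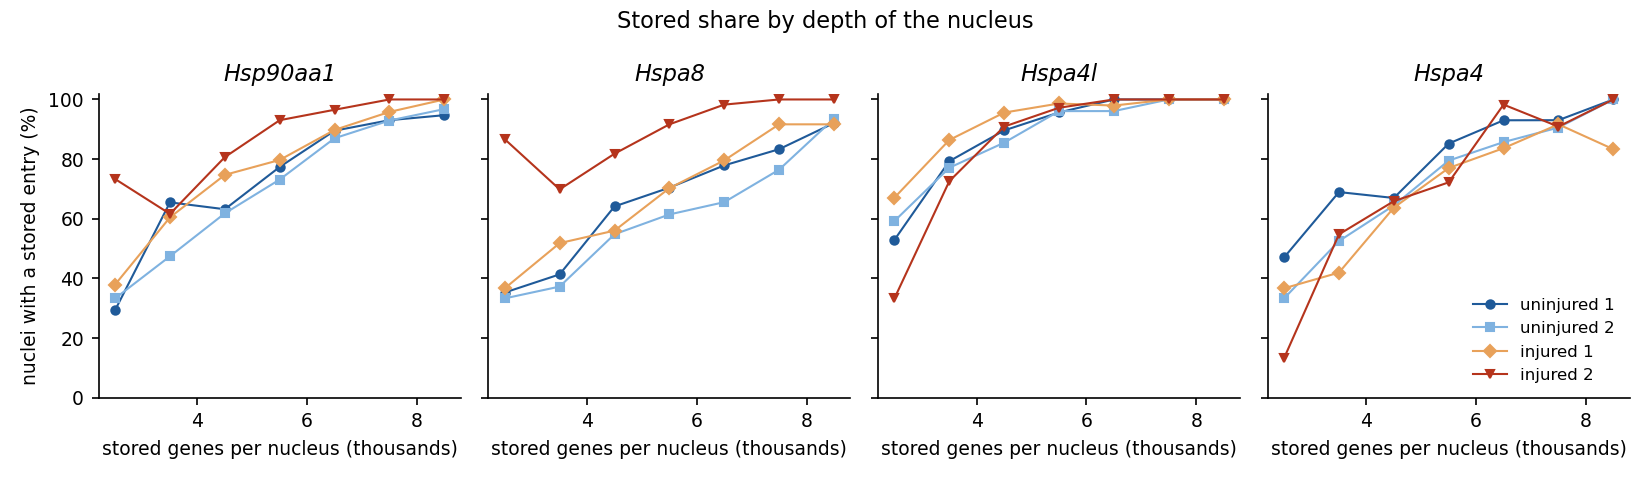
Stored share (percent of nuclei, vertical axis) of Hsp90aa1, Hspa8, Hspa4l and Hspa4 against the number of stored genes per nucleus (horizontal axis, bins of 1000), 1 line per library. The line of injured library 2 lies above the others for Hspa8 in all 7 bins, while the lines of Hspa4l and Hspa4 cross.

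The comparison asked whether the chaperones were stored more or less often after injury at similar depth. Each value below is the stored share averaged over the 7 bins. No chaperone passed the test: 0 of 10 were called by limma on the log-odds of the matched share, where 0% of the 13796 genes tested were called (Benjamini-Hochberg adjusted p under 0.05), although 1794 genes had an unadjusted p under 0.05. The difference was positive for 6 and negative for 4 of the chaperones, with a median of 0.16 log2 odds, and positive for 6630 and negative for 7166 of all genes, with a median of -0.02.

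The HSP90 genes and Hspa8 had the 3 largest positive differences. Hsp90aa1 was stored in 73.3% and 70.4% of uninjured and 76.9% and 86.5% of injured nuclei at matched depth. Both injured libraries lay above both uninjured ones. The difference was 0.84 ± 0.31 log2 odds (SE, n = 2 libraries a group, limma adjusted p = 0.300). Hsp90ab1 was stored in 72.2% and 68.2% of uninjured and 73.9% and 89.2% of injured nuclei. Injured library 2 stood well above the other 3, and the difference was 1.01 ± 0.42 log2 odds (limma adjusted p = 0.351). Hspa8 was stored in 66.4% and 60.4% of uninjured and 68.3% and 89.8% of injured nuclei. Again injured library 1 lay just above the uninjured libraries and injured library 2 far above, and the difference was 1.30 ± 0.51 log2 odds (limma adjusted p = 0.332).

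These 3 differences depended on injured library 2. Without it they were 0.38, 0.26 and 0.31 log2 odds for Hsp90aa1, Hsp90ab1 and Hspa8. With each nucleus thinned to 3100 stored genes they were 0.52, 0.45 and 0.69, and with no matching for depth 0.15, 0.47 and 0.66. Without injured library 1 they were 1.30, 1.76 and 2.29, and Hsp90ab1 and Hspa8 were then called (limma adjusted p = 0.0318 and 0.0226), in a fit that called 348 genes, 2.51% of those tested, and that assumes the lone injured library varies like the uninjured ones. Injured library 2 held the highest matched share of 6 of 10 chaperones, Hsp90aa1, Hsp90ab1, Hspa8, Dnaja1, Hspd1 and Hspe1, and of 27.1% of all genes tested. Other gene groups were read in the same nuclei. The 80 genes of cytosolic ribosomal proteins had a mean matched share of 29.9% and 27.0% in the uninjured and 30.2% and 46.7% in the injured libraries, with injured library 2 highest for 77 of 80, and 79 of the 80 had 0 counts everywhere. The 4 haemoglobin genes, which belong to blood cells and had 0 counts, were stored in a mean of 7.41%, 5.22%, 5.75% and 11.5% of nuclei. The 13 mitochondrially encoded genes were stored in a mean of 12.4%, 19.8%, 8.60% and 19.1%, with 0 counts for all 13, and the 10 oligodendrocyte markers in a mean of 13.0%, 19.1%, 9.35% and 15.5%, 8 of them with 0 counts. Markers of microglia or macrophages (11 genes, mean 13.8%, 14.6%, 13.5% and 13.7%) lay on both sides: 5 of 11 were higher in both injured libraries, among them C1qa (0%, 0.0697%, 2.51% and 3.15%) and C1qb (0.124%, 0.307%, 4.99% and 2.46%), and 3 were lower, among them P2ry12 (74.5%, 78.4%, 64.8% and 66.5%). Of 9 astrocyte markers (mean 9.97%, 12.3%, 11.9% and 11.6%), 2 were higher in both injured libraries, among them Gfap (4.27%, 3.70%, 11.1% and 8.62%), and 2 were lower. These marker genes were named after their values were seen. The 9 inhibitory markers were highest in uninjured library 2 (6.54%, 11.3%, 4.94% and 4.12%). The part of free RNA, of these other cell types and of the quality of this library in the chaperone values was not tested.

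**Figure D2:**
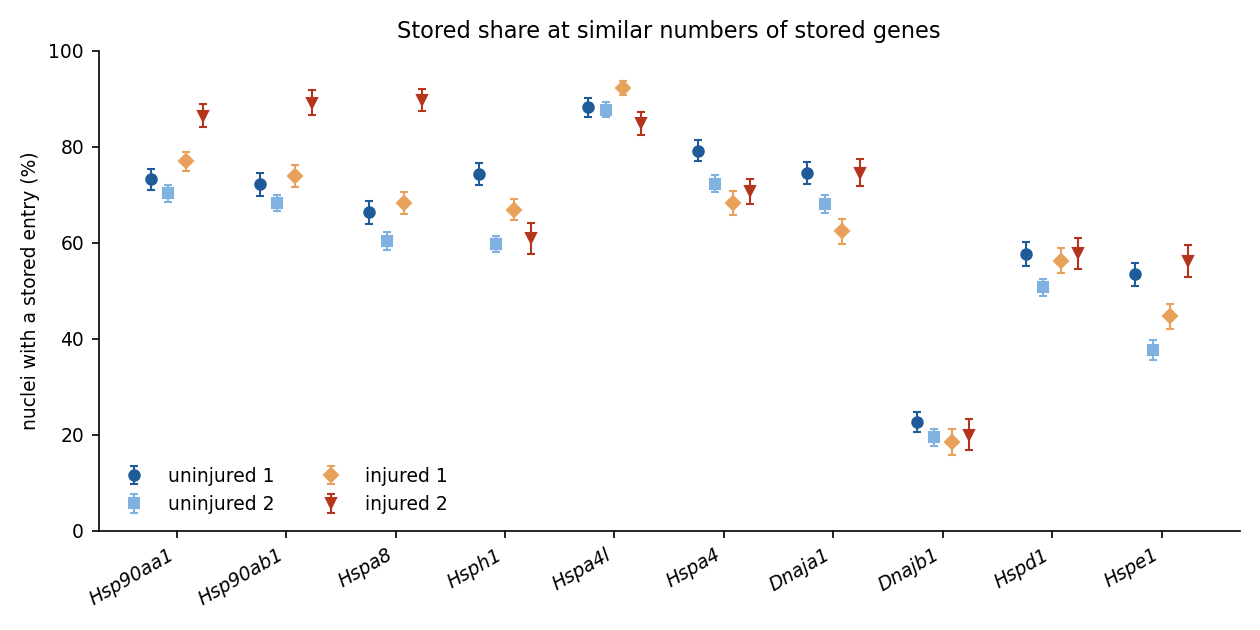
Stored share at matched depth (percent of glutamatergic neuron-like nuclei, mean over 7 bins, vertical axis) of each chaperone in the 4 libraries. Bars are 1 standard error from counting nuclei only, and injured library 2 stands apart for Hsp90aa1, Hsp90ab1 and Hspa8.

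Of the HSP110 genes, the exchange factors of HSP70, Hspa4 was stored in 79.2% and 72.3% of uninjured and 68.3% and 70.8% of injured nuclei. Both injured libraries lay below both uninjured ones, though injured library 2 and uninjured library 2 were close, and the difference was -0.46 ± 0.25 log2 odds (limma adjusted p = 0.495). It was -0.19 without uninjured library 1 and -0.72 without uninjured library 2. Hsph1 was stored in 74.3% and 59.8% of uninjured and 66.9% and 60.9% of injured nuclei, and both injured values lay between the uninjured ones. Hspa4l was stored in 88.2% and 87.7% of uninjured and 92.2% and 84.9% of injured nuclei, so the injured libraries lay on either side of the uninjured pair. Their differences were -0.22 ± 0.31 for Hsph1 and 0.15 ± 0.36 log2 odds for Hspa4l (limma adjusted p = 0.824 and 0.906).

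Among the J-domain proteins, Dnaja1, a farnesylated partner of Hspa8, was stored in 74.5% and 68.1% of uninjured and 62.4% and 74.6% of injured nuclei. Injured library 1 was lowest and injured library 2 highest, with the uninjured libraries between them. Dnajb1, the main stress-induced J-domain protein, was the least often stored of the 10, at 22.7% and 19.5% in uninjured and 18.5% and 20.1% in injured nuclei, with both injured values below uninjured library 1 and on either side of uninjured library 2. The differences were -0.18 ± 0.30 and -0.16 ± 0.25 log2 odds (limma adjusted p = 0.858 and 0.842).

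The mitochondrial pair overlapped between the groups. Hspd1 was stored in 57.7% and 50.7% of uninjured and 56.3% and 57.8% of injured nuclei, and Hspe1 in 53.5% and 37.6% of uninjured and 44.7% and 56.2% of injured nuclei. For both genes uninjured library 2 was lowest and injured library 2 highest, and for Hspd1 uninjured library 1 was level with the highest. The differences were 0.16 ± 0.23 and 0.29 ± 0.33 log2 odds (limma adjusted p = 0.816 and 0.776).

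In all, the 2 groups did not overlap for 4 of 10 chaperones, against 44.0% of all genes tested. Both injured libraries lay above both uninjured ones for 3 (Hsp90aa1, Hsp90ab1 and Hspa8), against 20.9% of all genes, and below for 1 (Hspa4), against 23.0%. With 2 libraries a group, a share of 4 in 10 is near that of the table.

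In the counts, 2 of the 10 chaperones passed the filter on low values. By edgeR's quasi-likelihood test 0 of these 2 were called, where 0% of 11065 genes were, 211 of which had an unadjusted p under 0.05, and DESeq2 called 11 genes, none a chaperone. Hspa4l stood at 185 and 137 CPM in uninjured and 71.9 and 176 CPM in injured nuclei. Injured library 1 was lowest, injured library 2 lay between the uninjured libraries, and the log2 fold change was -0.41 ± 0.44 (edgeR adjusted p = 1.00). Hspa4 stood at 29.0 and 0 CPM in uninjured and 13.7 and 48.0 CPM in injured nuclei, a log2 fold change of 1.15 ± 2.22 (edgeR adjusted p = 1.00). This sign is opposite to that of its stored share, and without uninjured library 2, the one at 0, the change was 0.13. Without uninjured library 1, Hspa4 was called at a log2 fold change of 10.24 (edgeR adjusted p = 0.0406), in a fit that called 291 genes, 2.59% of those tested, and in which the only uninjured library holds no count of it.

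Within the 9 glutamatergic neuron-like clusters the stored share was read against that expected from the depth of the nuclei, computed per bin over all 4 libraries with equal weight. Averaged over libraries, the ratio of observed to expected nuclei ran from 0.75 to 1.24 over the 10 chaperones and 9 clusters. Hsp90aa1 was above 1 in every library in cluster 11, led by Calcrl and Syt10, and Hspa4l in cluster 1, led by Col24a1 and P2rx6. This held for no other gene and cluster, while Dnajb1 in cluster 10 and Hspd1 in cluster 14 were below 1 in every library. For Hspa4l in cluster 1 the ratios were 1.01, 1.01, 1.08 and 1.01 at expected shares of 91.9% to 99.2%, which left little room above 1. Cluster 1 was also the deepest cluster, with a median depth of 2.39 times that of its libraries. In cluster 1 Hspa4l also had its highest level in every library, 247 and 220 CPM in uninjured and 117 and 226 CPM in injured libraries. Since the clusters were made from genes of the same nuclei, these levels are a description. Injury was tested in the 8 clusters with at least 20 nuclei in every library, which leaves out cluster 5, and no chaperone was called in any of them, by edgeR on counts (0% of genes called in 7 clusters and 0.0273% in cluster 14, the gene Lrp1b, named after its value was seen) or by limma on the ratios (0% of genes called in each).

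In cluster 8, led by Dnah11, Hmcn2 and Irs4, Hspa4l and Hsph1 were stored in fewer nuclei in both injured libraries. Hspa4l was stored in 92.5% and 90.5% of its 40 and 42 uninjured nuclei and in 57.1% and 40.9% of its 35 and 22 injured nuclei, at 1.02, 0.99, 0.77 and 0.52 of the expected number. Both injured libraries lay below both uninjured ones, and the counts stood at 34, 18, 0 and 3. Hsph1 was stored in 80.0% and 71.4% of uninjured and 34.3% and 31.8% of injured nuclei of this cluster, at 1.26, 1.14, 0.73 and 0.66 of the expected number, again with no overlap. In cluster 8 the groups also did not overlap for Hspa4, lower after injury, and Hspa8, higher. Both injured ratios lay above both uninjured ones for Hspa4l in clusters 4, 10 and 14 and for Hsph1 in cluster 1. The share of all genes without overlap was not computed for cluster 8, and was 44.0% in the matched shares over all clusters. Set against the other glutamatergic neuron-like nuclei of the same libraries, the injury difference of cluster 8 was -0.72 ± 0.15 for Hspa4l and -0.78 ± 0.19 on the log2 scale for Hsph1. Neither passed (limma adjusted p = 0.865 for each, unadjusted p = 0.00203 and 0.00498), where 0% of 9417 genes were called and 504 had an unadjusted p under 0.05. Median depth in the cluster was 5070.5 and 4995 stored genes in uninjured and 3507 and 3718 in injured nuclei. Cluster 8 was singled out after its values were seen.

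**Figure D3:**
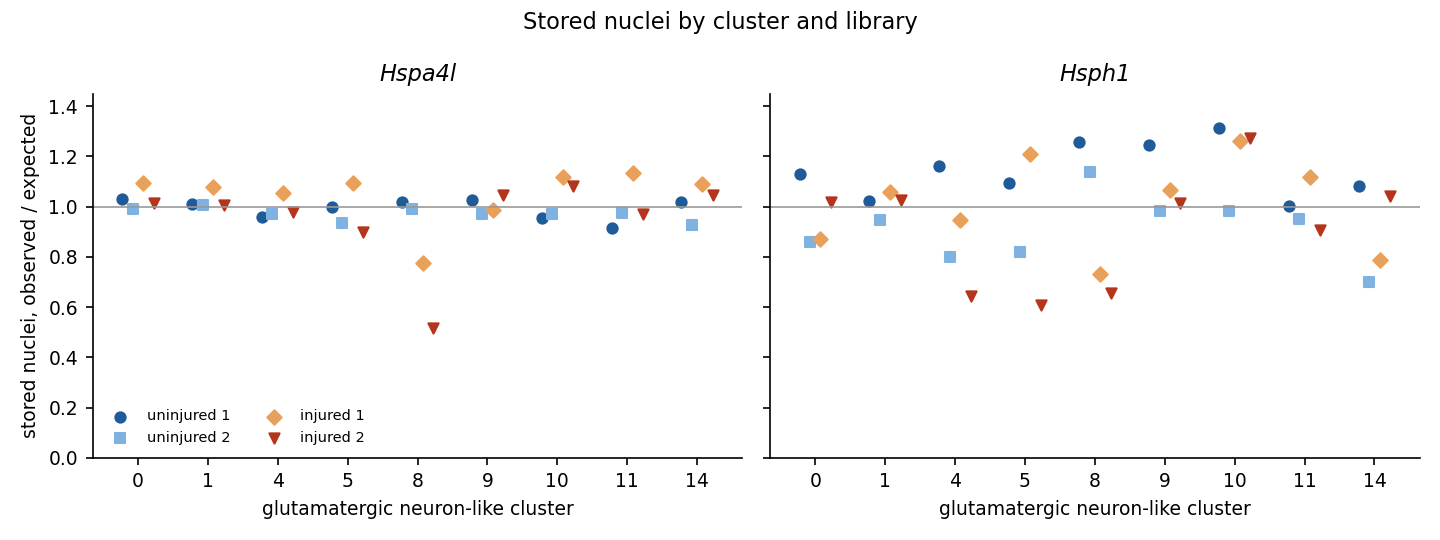
Observed over expected number of nuclei with a stored entry (vertical axis, 1 as a grey line) of Hspa4l (left) and Hsph1 (right) in the 9 glutamatergic neuron-like clusters (horizontal axis), 1 point per library. In cluster 8 both injured libraries lie below both uninjured ones for both genes. They lie above them for Hspa4l in clusters 4, 10 and 14 and for Hsph1 in cluster 1.

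Named glial classes and inhibitory-like neurons had at most 13 nuclei in any library but uninjured library 2, so their values are a description of 1 library with no test. The Hspa4l counts left after emptying were concentrated in 2 kinds of neuron, although other classes stored the gene too. In uninjured library 2, 73 of 115 inhibitory-like, 88 of 179 cluster 7 and 98 of 658 oligodendrocyte-like nuclei stored it, with 8, 7 and 0 counts. The CPM values and limits here describe what emptying left, not how often a class held the RNA. Hspa4l stood at 137 CPM (exact Poisson 95% interval 129 to 145) in glutamatergic neuron-like nuclei and at 118 CPM (82.2 to 164) in cluster 6, neurons left unnamed for want of any Slc17a6 count. Cluster 6 was present in all 4 libraries, with 30, 48, 80 and 49 nuclei, and its Hspa4l stood at 138, 118, 47.7 and 175 CPM, lowest in injured library 1 as in the glutamatergic neuron-like nuclei. In uninjured library 2 it stood at 10.5 CPM (4.54 to 20.7) in inhibitory-like neurons, at 8.08 CPM (3.25 to 16.7) in cluster 7, unnamed neurons led by Nmu, Ebf2 and Lmx1b, and had 0 counts in oligodendrocyte-like nuclei (up to 2.29 CPM), astrocyte-like nuclei (up to 9.62 CPM) and oligodendrocyte precursor-like nuclei (up to 33.9 CPM, each for 3 counts). None of these classes, nor cluster 16, held a count of Hsp90aa1, Hsp90ab1, Hspa8, Hspd1 or Hspe1.

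At similar depth the stored entries gave the same order for Hspa4l and a different one for Hsp90ab1. In bins of 500 stored genes from 2000 to 3500, Hspa4l was stored in 33.2% of 132 oligodendrocyte-like and 18.0% of 59 astrocyte-like nuclei against 62.7% of 69 glutamatergic neuron-like nuclei. In inhibitory-like neurons it was stored in 66.1% against 83.4% at their depth. Hsp90ab1 was stored in 53.8% of oligodendrocyte-like nuclei against 34.9% of glutamatergic neuron-like ones, and in 31.3% of astrocyte-like nuclei. Hsph1 was stored in 8.44% of oligodendrocyte-like and 25.6% of astrocyte-like nuclei against 23.1%. Over all nuclei, shallow and deep together, all 3 genes were stored less often in both glial classes: Hsp90ab1 in 37.4% (exact binomial 95% interval 33.7 to 41.2) of oligodendrocyte-like nuclei, at a median of 1780 counts, and in 69.0% (65.8 to 72.1) of glutamatergic neuron-like nuclei, at 9316 counts. In injured library 1, 29 nuclei of cluster 15, led by Inpp5d, Ly86 and Siglech, stored Hspa4 in 9 cases and Hspa4l in 1, too few to read further. This cluster held 11 of 11 microglia or macrophage markers but was left unnamed, since its median depth was 0.259 of that of its libraries and none of these markers was among its top 10 genes.

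**Figure D4:**
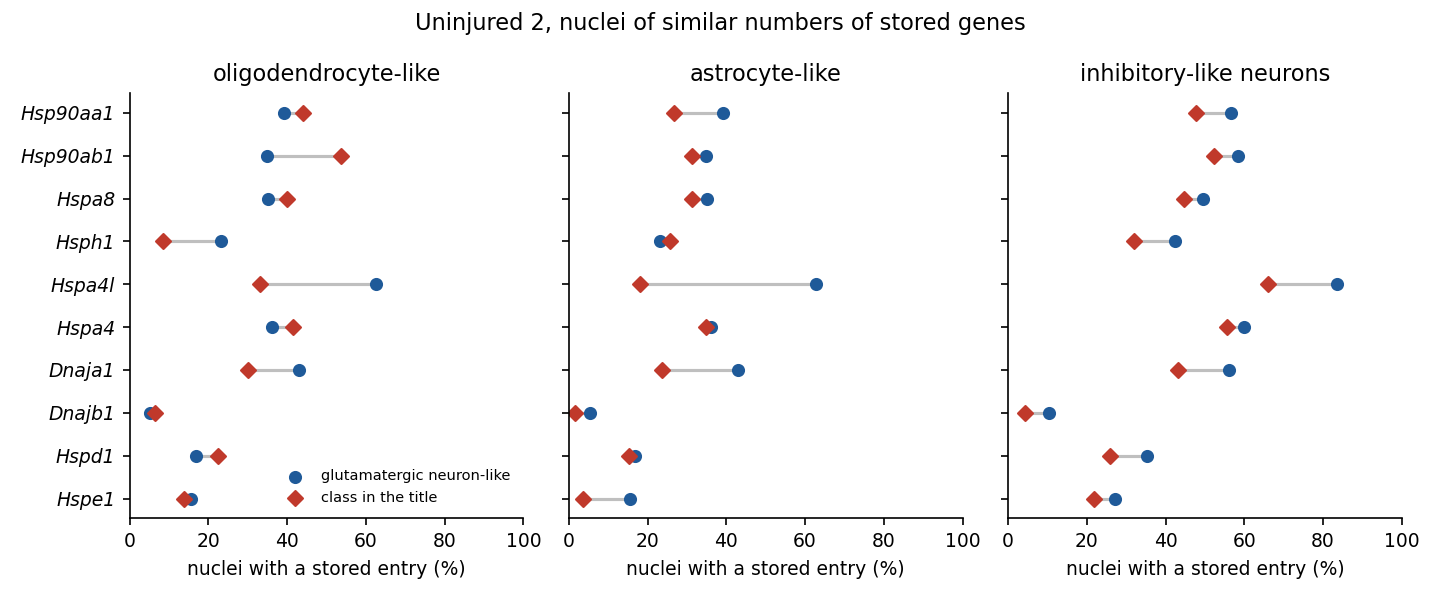
Stored share (percent of nuclei, horizontal axis) of each chaperone in uninjured library 2 for oligodendrocyte-like nuclei, astrocyte-like nuclei and inhibitory-like neurons (diamonds), beside glutamatergic neuron-like nuclei of similar numbers of stored genes (circles). Hspa4l is lower in all 3 classes, and Hsp90ab1 is higher in oligodendrocyte-like nuclei.

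The chaperones were not stored together to any strong degree. A nucleus in the matched bins stored a mean of 6.88, 5.88, 5.54 and 6.64 of the 10, and all 10 in 24, 18, 6 and 9 nuclei. Within bins of equal depth, 5 of the 45 pairs had a positive correlation across nuclei in all 4 libraries, and the mean over libraries ran from -0.03 to 0.08, with Hsp90aa1 and Hsp90ab1 the highest pair at 0.06, 0.02, 0.02 and 0.21. The nuclei of a library share its preparation, and correlations as weak as these are no finding.

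Other chaperones and their regulators were read from lists of the same pathways. None of their genes passed the test on matched stored shares. Of the heat shock factors Hsf1, Hsf2, Hsf4 and the binding protein Hsbp1, 2 had positive and 2 negative differences. Hsf2 was stored in 56.2% and 52.8% of uninjured and 55.8% and 59.5% of injured nuclei. Of the 8 stress-inducible chaperones 2 were stored often enough to be tested, Bag3 and Cryab, both with positive differences (0.39 ± 0.39 and 0.35 ± 0.37). For each of them injured library 2 was highest and injured library 1 lay between the uninjured libraries. Hspa1a, the inducible HSP70 that marks a heat shock response, was stored in 1.23%, 1.03%, 1.64% and 2.77% of nuclei, and Hspb1 in 1.54%, 1.19%, 2.56% and 1.64%, both with 0 counts.

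HSP90 co-chaperones had 11 positive and 7 negative differences, with a median of 0.18. Stub1, a ubiquitin ligase that binds HSP70 and HSP90, was stored in 34.5% and 28.4% of uninjured and 39.2% and 40.3% of injured nuclei (0.53 ± 0.23, limma adjusted p = 0.382), and Cdc37, which brings kinases to HSP90, in 25.2% and 29.3% of uninjured and 33.0% and 35.4% of injured nuclei (0.47 ± 0.23, limma adjusted p = 0.435). Genes of the TRiC chaperonin and prefoldin, which fold actin and tubulin, were often highest in injured library 2. They had 10 positive and 4 negative differences. Other J-domain proteins had 8 and 8, other HSP70 genes and exchange factors 5 and 4, and other mitochondrial chaperones 7 and 2, with Lonp1, a protease of the matrix, at 0.58 ± 0.26. Chaperones of the endoplasmic reticulum had 11 positive and 2 negative differences, with a median of 0.35 against -0.02 over all genes. Injured library 2 held the highest share for most of them, so this lean rests largely on 1 library. Hspa5 (BiP), the HSP70 of that compartment, was stored in 33.3% and 37.3% of uninjured and 39.0% and 64.8% of injured nuclei (0.98 ± 0.41, limma adjusted p = 0.354), again with injured library 2 far above the others. Manf, a secreted factor of the same stress response, went the other way, at 65.0% and 70.3% in uninjured and 56.0% and 57.7% in injured nuclei (-0.66 ± 0.22, limma adjusted p = 0.256), with 167, 20, 1 and 13 counts. Of genes known to be induced by tissue dissociation 4 of 8 tested had positive differences, Jun being stored in 12.04% and 10.3% of uninjured and 14.0% and 19.4% of injured nuclei.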

How the data were processed

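RNA of sorted nuclei was sequenced with 10x Genomics 3' v3 chemistry in 2 uninjured and 2 injured libraries. The authors deposited 1 matrix a library of whole counts of molecular identifiers by gene and nucleus, with 53.0% to 60.1% of stored entries at 0. Tools named in the submitters' processing notes are Cell Ranger and Seurat 5.0.0, with the mm10 build. The sources used here give neither a version of Cell Ranger nor settings for SoupX, which the file names mention.

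Nuclei with under 500 genes with a count (6, 324, 38 and 39) and doublets called by Scrublet in scanpy 1.11.5 (1, 4, 2 and 4, 0.306%) were left out. The other 3583 nuclei were clustered in Seurat 5.3.0 (CCA integration, 2000 variable genes, 30 dimensions, resolution 0.5). A cluster's name needed 3 markers that were 4-fold higher there and stored in 5% of its nuclei, and, in clusters far shallower than their libraries, 1 of them among the top 10 genes. Neurons needed 3 pan-neuronal markers at 100 CPM, and glutamatergic neurons also any Slc17a6 count, 3 stored V2a genes and sufficient depth.

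Counts summed per library were tested with edgeR 4.0.16 in R 4.3.3 (TMM, filterByExpr). Stored shares were averaged over bins of 1000 stored genes holding at least 5 nuclei of every library and tested with limma 3.58.1 on log2 odds (pseudocount 0.005, mean share of at least 5%). Both tests ran over all genes, Benjamini-Hochberg threshold 0.05, and were tested on simulated data. The simulated differences were larger than those of the chaperones in the main fits. These runs therefore do not show whether differences of the size seen here would be called. Intervals are exact at 95%, and the floor is 3 counts; both cover counting error only. DESeq2 1.42.0 and other settings were alternatives. Replicate numbers share no stated litter, batch or day.

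The 10 genes, the chaperone lists and the markers were chosen with earlier results of these data known. All 10 are described, and up to 3 genes of each other list with the smallest p could be named.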

Additional observations from a re-analysis of the deposited data

How the results depend on the processing

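No chaperone passed the threshold in either test under the alternatives run on all 4 libraries. In stored entries, 116 of 130 alternative values kept direction and side, 12 turned in direction and 2 passed the threshold; in counts, 18, 1 and 1 of 20 did. Without matching for depth, Hspa4l (-0.62), Hspd1 (-0.32) and Hspe1 (-0.24) turned negative, Hsp90aa1, Hsp90ab1 and Hspa8 were at 0.15, 0.47 and 0.66, Hspa4 was at -0.92 and 2000 genes were called. Thinned to 3100 stored genes, Hspe1 was at -0.0057, Hsp90aa1, Hsp90ab1 and Hspa8 were at 0.52, 0.45 and 0.69, Hspa4 was at -0.16 and 123 genes were called. With nuclei chosen by stored markers, Dnajb1 was at 0.16 and 2 genes were called, Cd163l1 and Tsix; with bins weighted by nuclei, chosen after seeing the data, 3 were, Cd163l1, Gm27008 and Gm16105. In counts, DESeq2 called 11 genes and a fit with no filter 9.

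Leaving out 1 library at a time, called genes ran from 0 to 348 in stored entries and from 0 to 291 in counts, and called chaperones from 0 to 2 and from 0 to 1. Stored differences ran from 0.38 to 1.30 for Hsp90aa1, from -0.72 to -0.19 for Hspa4, from -0.30 to -0.025 for Dnajb1, from 0.26 to 1.76 for Hsp90ab1, from 0.31 to 2.29 for Hspa8, from -0.69 to 0.25 for Hsph1, from -0.37 to 0.67 for Hspa4l, from -0.59 to 0.23 for Dnaja1, from -0.038 to 0.36 for Hspd1 and from -0.17 to 0.75 for Hspe1. Count differences ran from -1.12 to 0.094 for Hspa4l and from 0.050 to 10.24 for Hspa4.

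With the replicate number as a block (replicate block), 216 genes were called in stored entries and 0 in counts, and no chaperone. Deviations of same-numbered libraries correlated at 0.01 in stored entries and -0.06 in counts. Such a correlation cannot show whether these libraries share a litter, batch or day, and the sources used here do not state it.

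In stored entries at similar depth, Hspa4l was positive in clusters 0 (0.056), 1 (0.048), 4 (0.074), 10 (0.19), 11 (0.15) and 14 (0.13), where its counts were negative; neither passed. Over all neuron clusters, 41.5% of stored Hspa4l entries of uninjured library 2 kept a count. At similar depth in uninjured library 2, oligodendrocyte-like minus glutamatergic neuron-like nuclei differed by -29.4 points for Hspa4l, -14.6 for Hsph1 and 18.9 for Hsp90ab1, which was -31.6 over all nuclei; astrocyte-like minus glutamatergic neuron-like nuclei differed by -44.7, 2.53 (-34.6 over all nuclei) and -3.59. The cause of these changes was not tested beyond the depth that matching removes. Within-cluster tests rest on as few as 20 nuclei of a library.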
